A study of Rattus norvegicus with 4 samples.

Results

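Keratins of basal and injured epithelium were followed in whole rat lung as 9 genes: the simple keratins Krt7, Krt8, Krt18 and Krt19, the basal keratins Krt5, Krt14, Krt15 and Krt17, and Sfn, which encodes the epithelial 14-3-3 protein stratifin. The genes were chosen by name, and each of the 9 was matched by its symbol among the 22050 genes of the files. Lung mRNA had been collected on day 28 from SD (Sprague-Dawley) rats. The 2 bleomycin libraries came from rats that received bleomycin at 5 mg/kg in 0.2 mL by a single injection into the trachea, and the 2 control libraries from rats given normal saline in the same volume and by the same route. Bleomycin is an anticancer glycopeptide that cuts DNA strands, and its instillation is a common rodent model of pulmonary fibrosis. Each library came from 1 rat, and the animals' age and sex are not stated in the labels.

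Keratins build the intermediate filaments of epithelial cells from equal parts of a type I chain (here Krt14, Krt15, Krt17, Krt18 and Krt19) and a type II chain (here Krt5, Krt7 and Krt8). Simple keratins are used by single-layered epithelium, which in the lung includes alveolar, airway and mesothelial cells, while Krt5 with Krt14 or Krt15 marks the basal cells that serve as stem cells of the airway. In mice injured with bleomycin, alveolar cells pass through a Krt8-high transitional state, and in human fibrotic lungs an epithelial population carries KRT17 without KRT5.

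The libraries held between 34683699 and 44381111 counts summed over genes, and a gene with 3 counts lay between 0.0681 and 0.0868 CPM. CPM are counts divided by the scaled library size. Markers of lung epithelium were present in all 4 libraries, with Sftpc, the surfactant protein of alveolar type 2 cells, at 6822 CPM or more. Of the 15709 genes that passed the filter on low counts, 1455 were higher (9.26%) and 1169 lower (7.44%) in bleomycin lungs; such calls rest throughout on edgeR's quasi-likelihood test with a Benjamini-Hochberg adjusted p under 0.05. The calls rest on having both controls: without control replicate 1 the test called 13 genes higher and 8 lower, and without control replicate 2 it called 22 and 13. Wherever 1 library is left out, the lone library of that group is assumed to vary as much as the remaining pair, so such calls are weaker evidence; without bleomycin replicate 2, where the spread comes from the controls alone, 2569 genes were called higher. Heart muscle transcripts stood apart in control replicate 1, where the 8 listed heart genes summed to 204 CPM, against 119 and 69.3 CPM in bleomycin replicates 1 and 2 and 37.8 CPM in control replicate 2.

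All 9 genes passed the filter, Krt5 through the bleomycin libraries, since control replicate 2 held no Krt5 count. In bleomycin lungs Krt18, Krt17 and Sfn rose, which is 3 of 9, and none fell, where 9.26% of all tested genes rose; in addition Krt8, Krt5 and Krt14 were higher in both bleomycin libraries than in either control but did not pass. The 6 genes whose groups did not overlap were all higher in bleomycin lungs, where 35.1% of all tested genes were higher without overlap and 68.5% did not overlap in either direction. The remaining Krt7, Krt15 and Krt19 had overlapping groups. In whole-lung RNA, a change in the number of cells that carry a transcript and a change in its amount per cell cannot be told apart.

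**Figure D1:**
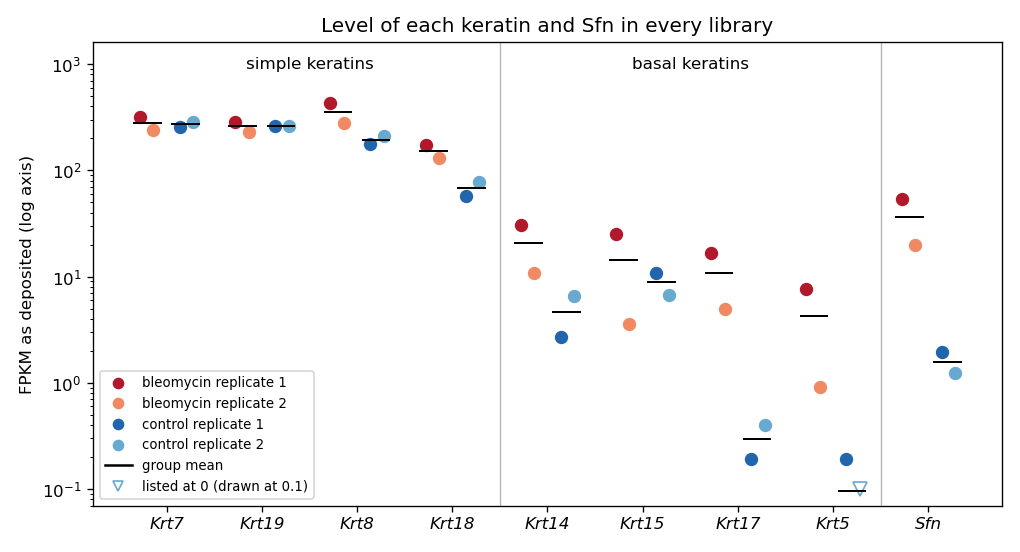
Deposited FPKM (fragments scaled to gene length and library size) of the 9 genes in each library, on a log axis, with the bleomycin libraries left of the controls and black lines at the group means (n = 2 each). Krt7 and Krt19 lie at one height in both groups, Krt8 and Krt18 are higher in bleomycin lungs, and among basal keratins bleomycin replicate 1 lies above bleomycin replicate 2 for each gene; the open triangle marks Krt5 listed at 0.

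Among simple keratins, Krt18 rose and Krt8 showed the same direction, while Krt7 and Krt19 stayed near their control level. Krt8, the type II chain that pairs with Krt18, had 735 and 482 CPM in bleomycin lungs (replicates 1 and 2), against 303 and 365 CPM in control replicates 1 and 2. It was 1.82-fold higher but did not pass (log2 change 0.86 ± 0.23 SE, edgeR adjusted p = 0.0646). Krt18 had 237 and 178 CPM in bleomycin lungs (replicates 1 and 2), against 78.5 and 106.7 CPM in the controls, and the groups did not overlap. It rose 2.24-fold (log2 change 1.16 ± 0.21 SE, edgeR adjusted p = 0.0292). Its adjusted p by edgeR was 0.0608 without bleomycin replicate 1, 0.154 without control replicate 1 and 0.0958 without control replicate 2, so the call needs these 3 libraries, and Krt8 passed without bleomycin replicate 2 (2.17-fold, edgeR adjusted p = 0.00824) and by DESeq2 (adjusted p = 0.0024).

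Krt7, a type II chain of glandular, airway and mesothelial epithelium, had 448 and 345 CPM in bleomycin lungs, against 365 and 409 CPM in control lungs. Krt19, the smallest type I keratin and a marker of ductal and airway epithelium, had 394 and 323 CPM in bleomycin lungs, against 359 and 360 CPM in control lungs. For both genes the controls lay between the bleomycin libraries. Their log2 changes were 0.03 ± 0.16 for Krt7 and -0.01 ± 0.14 for Krt19 (SE), with edgeR adjusted p of 0.906 and 0.984.

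The proportions within the simple keratins were compared on the per-length FPKM scale. The FPKM ratio of Krt8 to Krt7 was 1.37 and 1.16 in bleomycin replicates 1 and 2, against 0.690 and 0.742 in control replicates 1 and 2. The ratio of Krt18 to Krt19 was 0.607 and 0.557 in bleomycin lungs, against 0.221 and 0.299 in control lungs. Neither ratio overlapped between the groups. An exact two-sided permutation test gave p = 0.333 for each, the smallest that 2 against 2 libraries allow. By mean FPKM the order of the simple keratins in bleomycin lungs was Krt8 (353.7), Krt7 (276.9), Krt19 (259.6) and Krt18 (151.7), whereas in control lungs it was Krt7 (270.1), Krt19 (260.0), Krt8 (193.8) and Krt18 (67.6). Krt8 was the highest of the 9 genes in each bleomycin library and the third in each control, and Krt7 and Krt19 did not differ beyond their spread in either group.

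Krt8 and its partner Krt18 together made up 47.0% and 45.3% of the summed FPKM of the 8 keratins in bleomycin replicates 1 and 2, against 30.6% and 34.1% in control replicates 1 and 2. The FPKM ratio of Krt8 to Krt18 was 2.47 and 2.15 in bleomycin lungs, against 3.07 and 2.72 in control lungs, without overlap (exact permutation p = 0.333). Over these 8 keratins, type II FPKM exceeded type I by 1.41-fold and 1.36-fold in bleomycin lungs, against 1.302-fold and 1.412-fold in control lungs. The balance of chain types among these 8 thus overlapped between the groups. Other keratins are outside these sums, among them Krt79 and Krt80. Krt79 had 27.5 and 37.1 FPKM in bleomycin lungs, against 45.4 and 40.7 FPKM in control lungs. Krt80 had 15.95 and 13.04 FPKM in bleomycin lungs, against 16.13 and 13.12 FPKM in control lungs. The 8 keratins together took 0.195% and 0.135% of all counts in bleomycin lungs, against 0.112% and 0.127% in control lungs.

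**Figure D2:**
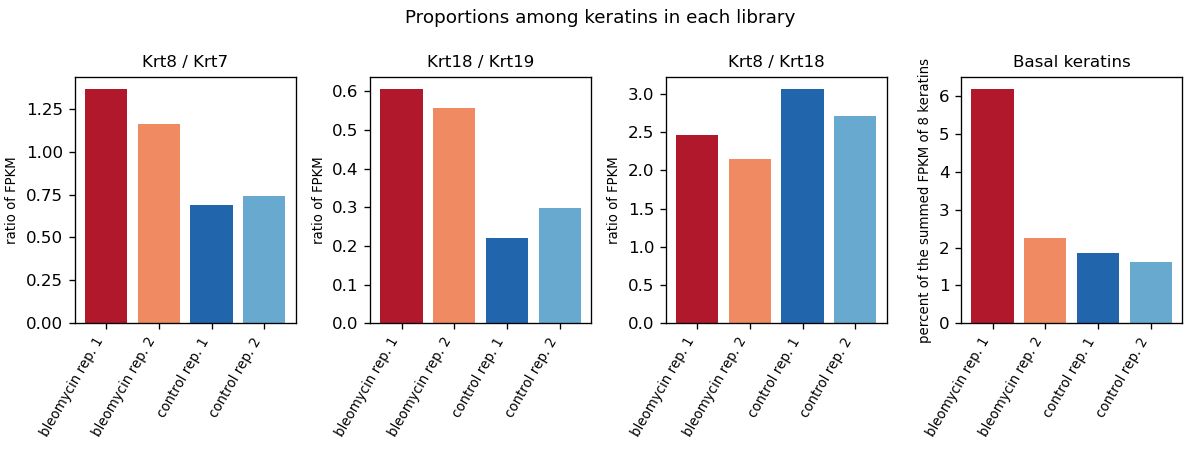
Proportions among keratins in each library: FPKM ratios of Krt8 to Krt7, Krt18 to Krt19 and Krt8 to Krt18, and the 4 basal keratins as a percent of the summed FPKM of 8 keratins (bars start at 0, 1 bar per library). Krt8 is above Krt7 in both bleomycin libraries and below it in both controls, and the basal share stands apart in bleomycin replicate 1 at 6.19%.

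Krt8 and Krt18 are neighbours among the protein-coding genes of the RefSeq table, although Krt18 is a type I keratin among type II genes. Promoter windows of 300 bases (250 before and 50 after the annotated start) were found for Sfn, Krt18, Krt8 and Krt5 in RefSeq, build GRCr8, and not matched for Krt7, Krt14, Krt15, Krt17 and Krt19. They are shown because only these 4 of the 9 genes had an entry. All 4 were higher in both bleomycin libraries than in either control, as were Krt14 and Krt17. Sfn lies at chr5:151111805-151112104 (minus strand), Krt18 at chr7:135035918-135036217 (plus strand), Krt8 at chr7:135010290-135010589 (minus strand) and Krt5 at chr7:134730520-134730819 (minus strand). Capitals mark matches, on either strand, to the AP-1 motif TGANTCA, the TATA box TATAAA and the GC box GGGCGG.
Sfn: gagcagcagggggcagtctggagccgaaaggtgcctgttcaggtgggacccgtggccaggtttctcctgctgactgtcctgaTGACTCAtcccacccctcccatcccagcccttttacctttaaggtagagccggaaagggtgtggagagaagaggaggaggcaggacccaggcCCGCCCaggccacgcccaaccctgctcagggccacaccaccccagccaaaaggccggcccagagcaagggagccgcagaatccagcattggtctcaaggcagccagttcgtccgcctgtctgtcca
Krt18: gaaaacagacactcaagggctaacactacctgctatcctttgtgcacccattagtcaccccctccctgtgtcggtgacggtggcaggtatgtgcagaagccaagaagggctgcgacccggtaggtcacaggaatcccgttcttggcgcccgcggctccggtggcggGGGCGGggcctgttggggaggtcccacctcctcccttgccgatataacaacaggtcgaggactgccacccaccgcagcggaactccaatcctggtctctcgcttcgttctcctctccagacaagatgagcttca
Krt8: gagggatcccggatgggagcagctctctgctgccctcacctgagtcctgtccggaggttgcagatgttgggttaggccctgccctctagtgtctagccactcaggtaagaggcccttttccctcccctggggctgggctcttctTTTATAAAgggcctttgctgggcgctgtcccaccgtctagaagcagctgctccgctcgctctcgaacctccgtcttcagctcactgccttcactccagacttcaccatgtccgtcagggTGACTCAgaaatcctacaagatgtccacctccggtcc
Krt5: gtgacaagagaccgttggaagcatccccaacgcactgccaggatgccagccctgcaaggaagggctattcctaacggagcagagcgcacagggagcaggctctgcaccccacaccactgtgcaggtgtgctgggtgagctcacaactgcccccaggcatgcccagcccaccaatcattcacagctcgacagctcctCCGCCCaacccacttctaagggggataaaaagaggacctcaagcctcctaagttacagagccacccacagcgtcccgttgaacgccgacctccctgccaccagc

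The AP-1 letters TGACTCA, which read as a match on both strands, began at -168 from the start in Sfn and at position 14 after it in Krt8. From the annotated start the Krt8 window reads atg, the letters of a start codon, and its AP-1 match lies behind them. The Krt8 match is therefore not before the start. Read in triplets from that atg, the window runs to its end without a stop codon, and the match lies in this open frame. No protein sequence was compared. The Krt8 positions count from the same atg, and whether transcription begins there was not tested. Among all 33469 promoter windows of the table, 7.33% held an AP-1 match, 14.2% a TATA box and 33.1% a GC box. Krt8 held overlapping TATA box matches on both strands at -106 and -104. GC boxes began at -76 in Sfn, -84 in Krt18 and -54 in Krt5. These matches describe letters in the windows only.

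Among basal keratins, Krt17 rose, Krt5 and Krt14 were higher in both bleomycin libraries without passing, and Krt15 went in opposite directions in the 2 bleomycin rats. Krt17, a type I keratin induced in injured and stressed epithelium, had 25.6 and 7.67 CPM in bleomycin lungs (replicates 1 and 2), against 0.289 and 0.619 CPM in control replicates 1 and 2. The control levels rest on 10 and 27 counts. It rose 35.6-fold (log2 change 5.15 ± 0.77 SE, edgeR adjusted p = 0.0206). The fold was 16.4 without bleomycin replicate 1, 54.0 without bleomycin replicate 2 and 56.9 without control replicate 2, and the edgeR adjusted p was 0.11 without control replicate 1 and 0.0931 without control replicate 2.

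Krt5, the type II keratin that defines basal cells, had 445 and 61 counts in bleomycin replicates 1 and 2, against 10 and 0 counts in control replicates 1 and 2. That is 11.3 and 1.38 CPM in bleomycin lungs, against 0.289 and 0 CPM in control lungs; the exact 95% Poisson interval was 0.139 to 0.532 CPM in control replicate 1, and its upper bound was 0.0845 CPM in control replicate 2, where 3 counts, the limit used here for a count of 0, equal 0.0687 CPM. Intervals and limits of this kind cover counting error only. The groups did not overlap, but Krt5 did not pass (log2 change 5.54 ± 1.53 SE, edgeR adjusted p = 0.0683). Bleomycin replicate 1 had 8.14 times the Krt5 CPM of replicate 2, a gap that only 35 of the 15709 tested genes exceeded on the log2(CPM + 0.1) scale. The log2 change of Krt5 was 3.31 without bleomycin replicate 1 (edgeR adjusted p = 0.205), 6.37 without bleomycin replicate 2 (adjusted p = 0.0361) and 4.43 without control replicate 2 (adjusted p = 0.216); without control replicate 1 the remaining control holds no count, so no fold is given (adjusted p = 0.149).

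Krt14, the type I partner of Krt5, had 43.9 and 16.04 CPM in bleomycin lungs (replicates 1 and 2), against 3.94 and 9.51 CPM in control replicates 1 and 2. The groups did not overlap, and the 4.43-fold difference did not pass (log2 change 2.15 ± 0.63 SE, edgeR adjusted p = 0.0748). With 1 library left out its fold lay between 2.36 (without bleomycin replicate 1) and 7.61 (without control replicate 2), and it did not pass in any of these 4 fits. Krt15, another type I keratin of basal cells, had 41.0 and 5.92 CPM in bleomycin lungs (replicates 1 and 2), against 18.2 and 11.2 CPM in the controls. Bleomycin replicate 1 thus lay above both controls and replicate 2 below both. The log2 change of Krt15 was 0.68 ± 0.85 (SE, edgeR adjusted p = 0.602), -1.31 without bleomycin replicate 1 (adjusted p = 0.0859) and 1.47 without bleomycin replicate 2 (adjusted p = 0.0427).

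Per length, the basal keratins stayed far below the simple ones in every library. Summed FPKM of the 4 basal keratins was 79.5 and 20.3 in bleomycin replicates 1 and 2, against 13.99 and 13.67 in control replicates 1 and 2, beside 1206 and 878 in bleomycin lungs, against 745 and 838 in control lungs, for the simple keratins. The basal share of keratin FPKM was 6.19% and 2.26% in bleomycin lungs, against 1.84% and 1.60% in control lungs. In control lungs the mean FPKM order was Krt15 (8.83), Krt14 (4.61), Krt17 (0.295) and Krt5 (0.095), and in bleomycin lungs Krt14 (20.6), Krt15 (14.2), Krt17 (10.8) and Krt5 (4.24). The FPKM ratio of Krt17 to Krt14 was 0.551 and 0.452 in bleomycin lungs, against 0.0706 and 0.0613 in control lungs. Krt14 exceeded its partner Krt5 in every library. Its FPKM was 4.01 and 11.99 times that of Krt5 in bleomycin lungs and 14.2 times in control replicate 1, the control with any Krt5 count.

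Set side by side, the median log2 change was 3.65 for the 4 basal and 0.45 for the 4 simple keratins, against 0.01 for all tested genes. In each class 1 of 4 genes rose and none fell. For each gene the log2 CPM, with a prior count of 2 added before taking logs, was also set against its own control mean. The median of these differences over the basal keratins was 4.29 and 2.43 in bleomycin replicates 1 and 2. Over the simple keratins it was 0.68 and 0.19. The basal keratins therefore led the simple ones by 3.62 and 2.24 on the log2 scale in the 2 bleomycin libraries. With 4 genes a class the medians are descriptions and carry no test. The basal medians include Krt5, which passed the filter on low counts through the bleomycin libraries. Of the other basal keratins, Krt17 changed by 5.15, Krt14 by 2.15 and Krt15 by 0.68, so the middle value without Krt5 was 2.15. Without bleomycin replicate 1 the basal median was 2.28 and the simple median 0.18.

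**Figure D3:**
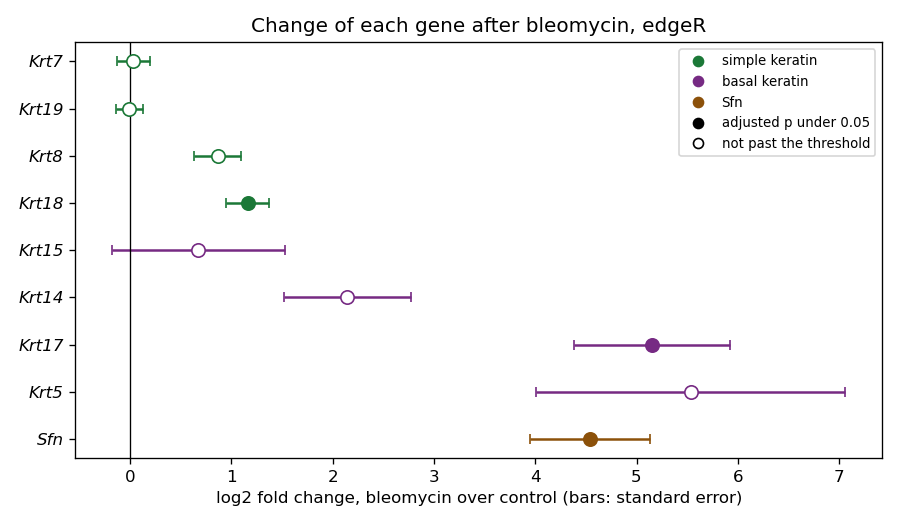
Log2 fold change of each gene, bleomycin over control, with standard errors from edgeR's quasi-likelihood test; filled points passed an adjusted p under 0.05 and open points did not. Krt18, Krt17 and Sfn are filled, Krt7 and Krt19 sit at 0, and the bars are widest for Krt5 (5.54 ± 1.53) and Krt15 (0.68 ± 0.85).

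Sfn, a p53 target that restrains the cell cycle in epithelial cells, showed the highest change among the called members after Krt17. It had 39.7 and 14.8 CPM in bleomycin lungs (replicates 1 and 2), against 1.45 and 0.916 CPM in control replicates 1 and 2, which is 1569 and 653 counts against 50 and 40. Per length Sfn lay above each basal keratin in both bleomycin libraries, at 53.6 and 19.7 FPKM, and in control lungs it lay at 1.93 and 1.23 FPKM, below Krt14 and Krt15. Sfn rose 23.3-fold (log2 change 4.54 ± 0.59 SE, edgeR adjusted p = 0.0175), or 12.6-fold without bleomycin replicate 1; its edgeR adjusted p was 0.0836 without control replicate 1 and 0.0921 without control replicate 2. The 6 other 14-3-3 genes encode widely expressed phosphoprotein-binding adaptors. Of them 1 rose and none fell (3 rose by DESeq2), where 9.26% of all tested genes rose. That gene, Ywhah, had 255 and 262 CPM in bleomycin lungs, against 171 and 187 CPM in control lungs (1.44-fold, edgeR adjusted p = 0.0345). Ywhag (log2 change 0.65 ± 0.19 SE) and Ywhaz (0.31 ± 0.11) did not pass.

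The 2 bleomycin rats differed in the basal keratins and Sfn more than in the simple keratins. The ratio of bleomycin replicate 1 to replicate 2 in CPM was 8.14 for Krt5, 6.93 for Krt15, 3.34 for Krt17, 2.74 for Krt14 and 2.68 for Sfn. It was 1.53 for Krt8, 1.33 for Krt18, 1.299 for Krt7 and 1.22 for Krt19. All 9 genes were higher in bleomycin replicate 1 than in replicate 2. The share of all tested genes in that order is not reported here, so this count is a description. Between 0.223% and 2.78% of all tested genes had a larger gap between these libraries than Krt5, Krt15, Krt17, Krt14 or Sfn, and between 16.1% and 41.3% had a larger gap than the simple keratins.

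Of the other keratin genes, 39 were in the files and 13 passed the filter, while 8 had no count in any library. Of the 13, none rose and 1 fell, where 9.26% of all tested genes rose and 7.44% fell. The median log2 change of the 13 was -0.04. Without bleomycin replicate 2 the test called 2 higher and 2 lower, and DESeq2 called 1 higher and 1 lower. Krt76, a type II keratin known from the palate and gums, had 7.85 and 8.91 CPM in bleomycin lungs, against 20.3 and 39.98 CPM in control lungs, and fell 3.60-fold (edgeR adjusted p = 0.0299). The call was lost when bleomycin replicate 1 (edgeR adjusted p = 0.159) or replicate 2 (0.0926) was left out. Krt4, of the lining of mouth and oesophagus, had 5.22 and 6.87 CPM in bleomycin lungs, against 0.463 and 2.47 CPM in control lungs, and did not pass (edgeR adjusted p = 0.117). Krt78 had a log2 change of 1.26 ± 0.46 (SE) and did not pass either. Krt16, a stress-induced relative of Krt17, had 22 and 15 counts in bleomycin lungs, against 4 and 0 counts in control lungs (edgeR adjusted p = 0.137).

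Genes that tie keratin filaments to cell junctions went both ways. Of 15 tested, 2 rose and 4 fell, with a median log2 change of -0.12, where 9.26% of all tested genes rose and 7.44% fell. Pkp1, the plakophilin of desmosomes in stratified epithelium, had 43.2 and 25.2 CPM in bleomycin lungs, against 4.75 and 7.90 CPM in control lungs, and rose 5.38-fold (edgeR adjusted p = 0.0212). Itgb4, the hemidesmosome integrin, rose 1.37-fold, a call lost when bleomycin replicate 1 was left out (edgeR adjusted p = 0.0567). Ppl, the cytolinker periplakin, fell 2.36-fold to 158 and 202 CPM in bleomycin lungs, against 402 and 447 CPM in control lungs (edgeR adjusted p = 0.0167). Perp, a p53-induced desmosome component, fell 2.18-fold, Jup, plakoglobin, 1.57-fold and Evpl, envoplakin, 1.49-fold.

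Of 15 tested basal cell markers other than keratins, 5 rose and 1 fell, with a median log2 change of 0.45; without bleomycin replicate 1 these counts were 3 and 1, and without bleomycin replicate 2 they were 7 and 3. Those that rose were Pkp1, Itgb4, Snai2, Trim29 and Serpinb5, and other lung cells also express several of them. Pkp1 and Itgb4 are the same 2 genes that rose among those tying keratin filaments to junctions. Over all tested genes 9.26% rose and 7.44% fell. Serpinb5 and Trim29 passed the filter on low counts through the bleomycin libraries alone, so the count of 5 is a description. Snai2, a transcription factor also found in fibroblasts, had 9.80 and 10.1 CPM in bleomycin lungs, against 2.92 and 2.36 CPM in control lungs, and rose 3.77-fold (edgeR adjusted p = 0.0142). Serpinb5, a serpin of basal epithelium, had 45 and 16 counts in bleomycin lungs and none in control lungs, at least 19.0-fold higher against 3 counts over both controls, or at least 9.46-fold from bleomycin replicate 2 alone and at least 29.7-fold from replicate 1 alone. Trim29 had 116 counts over the bleomycin pair, against 2 over the control pair, a ratio of 54.3 (exact 95% interval 14.7 to 453), and 31.04 from bleomycin replicate 2 alone. Neither Serpinb5 (edgeR adjusted p = 0.117) nor Trim29 (0.0788) was called without bleomycin replicate 1.

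Tp63, the transcription factor that defines basal cells, had 125 and 25 counts in bleomycin replicates 1 and 2, against 10 and 24 counts in control replicates 1 and 2, so its groups nearly met, and it did not pass (edgeR adjusted p = 0.165). Dsg3, a desmosomal cadherin of basal and squamous cells, had 50 counts in bleomycin replicate 1 and none elsewhere. Bcam, the most abundant gene of the list, had 661 and 829 CPM in bleomycin lungs, against 953 and 974 CPM in control lungs, and did not pass (edgeR adjusted p = 0.152). The gene that fell was Fgfbp1, a secreted carrier of fibroblast growth factors, at 6.66 and 7.51 CPM in bleomycin lungs, against 16.7 and 14.7 CPM in control lungs.

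**Figure D4:**
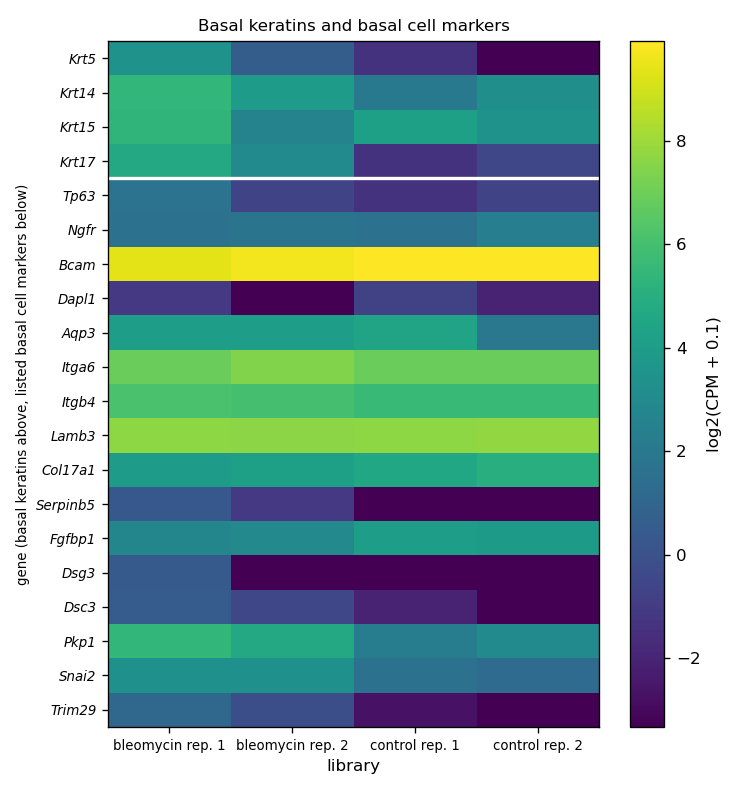
Level of the 4 basal keratins (above the white line) and of 16 basal cell markers in each library, as log2(CPM + 0.1), with bleomycin libraries on the left. Krt5, Krt17, Serpinb5, Trim29 and Dsc3 are lighter in both bleomycin libraries, Tp63 and Dsg3 mainly in bleomycin replicate 1, and Bcam is high in all 4.

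Of 17 tested genes known from Krt8-high transitional epithelium in mice, 9 rose and 1 fell, with a median log2 change of 0.71. Among all tested genes 9.26% rose and 7.44% fell. Which lung cells carried these transcripts was not tested. Areg, an epidermal growth factor receptor ligand, had 25.5 and 14.97 CPM in bleomycin lungs, against 2.95 and 2.47 CPM in control lungs (7.47-fold, edgeR adjusted p = 0.0142). Cldn4, a tight junction claudin, had 53.1 and 27.04 CPM in bleomycin lungs, against 9.52 and 9.76 CPM in control lungs (4.15-fold). Ccn2, a matricellular growth factor that fibroblasts also make, rose 2.19-fold. Anxa3, an annexin, was the gene that fell, 1.76-fold, a call lost when bleomycin replicate 1 was left out. Cdkn1a and Fosl1, which rose 2.47-fold and 2.72-fold, lost their calls in that fit too, at 2.57-fold and 2.19-fold. Cdkn1a also lost its call without bleomycin replicate 2, at 2.33-fold. No call of any list described here held when either control was left out. The only list genes called without control replicate 2 belonged to the heart muscle list.

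Other cells of the lung also carry simple keratins, and their markers were measured beside them. The 14 listed genes shared by many lung epithelial cells overlapped between the groups in their sum, at 1738 and 1892 CPM in bleomycin lungs, against 1758 and 1742 CPM in control lungs; 1 of the 14 rose and none fell, while 2 rose and 3 fell without bleomycin replicate 2. That gene was Elf3, an epithelial transcription factor, which rose 2.34-fold. Over all tested genes 9.26% rose and 7.44% fell. The 11 alveolar type 1 markers summed to 3768 and 5638 CPM in bleomycin lungs, against 10450.0 and 10697 CPM in control lungs, and 9 of 11 fell. The 10 alveolar type 2 markers summed to 19813 and 31838 CPM in bleomycin lungs, against 33565 and 33555 CPM in control lungs, and none passed; 5 were lower without bleomycin replicate 2, 1 without bleomycin replicate 1 and 3 by DESeq2. Of 8 club cell markers 1 rose and 4 fell, among them Scgb1a1, the main secretory protein of club cells, 4.99-fold. Ciliated cell genes moved the same way as type 1 genes, with 6 of 10 lower and none higher at the threshold.

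The 11 mesothelial markers, from cells that also carry Krt7, Krt8, Krt18 and Krt19, summed to 739 and 542 CPM in bleomycin lungs (replicates 1 and 2), against 313 and 450 CPM in control replicates 1 and 2. The sums did not overlap. Over all tested genes 9.26% rose, and 68.5% had groups without overlap in either direction. Of the 10 mesothelial markers tested 1 rose: Lrrn4, at 80.2 and 70.1 CPM in bleomycin lungs, against 30.9 and 41.1 CPM in control lungs. Without bleomycin replicate 2 it was 3 of 10, and without bleomycin replicate 1 it was 2 of 10. Msln, mesothelin, had 292 and 163 CPM in bleomycin lungs, against 62.3 and 125.5 CPM in control lungs (edgeR adjusted p = 0.0986). Calb2, another mesothelial marker, had at most 2 counts in a library. The part of mesothelial transcripts in the simple keratin values was not tested. Of 12 squamous epithelium markers 7 passed the filter and none was called in either direction, against 1 higher without bleomycin replicate 2, 1 lower without bleomycin replicate 1 and 2 higher by DESeq2; Sprr1a, Sprr1b, Sprr3 and Klk10 had no count in any library. Thymic epithelium also carries Krt5 and Krt14. Of its listed markers Foxn1 had at most 10 counts in a library, Aire and Ccl25 at most 2 and Pax1 none. Prss16 had 41 and 68 counts in bleomycin lungs, against 15 and 26 in control lungs, and did not pass (edgeR adjusted p = 0.115). Tbata had 7 and 9 counts in bleomycin lungs, against 0 and 2 in control lungs. Psmb11 had 0 and 1 counts in bleomycin lungs, against 5 and 2 in control lungs. The thymic list's Ccl21, which lymphatic vessels also make, rose 2.49-fold.

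Across the 4 libraries, the genes closest to Krt8 were Ccl3, Epha7 and Rab37, with root mean square differences of 0.0356 to 0.0386 in log2 CPM centred on the controls, among the 13370 tested genes whose mean log2 CPM over the libraries was 1 or more. Among the same genes, those closest to Sfn were Mab21l3 (0.185), Prss22 (0.348) and Aoc1 (0.358). Krt5 itself lay below that level and was set against 15700 tested genes, where it had no match as close: Bpifa1 differed by 0.429, Padi3 by 0.606 and Ccl12 by 0.732. Bpifa1 shared its split within the groups, at 335 and 34.9 CPM in bleomycin lungs (replicates 1 and 2), against 16.1 and 1.17 CPM in control replicates 1 and 2. With 4 libraries this likeness is a description.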

How the data were processed

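Messenger RNA of whole lung was enriched with oligo(dT) beads and reverse transcribed with random primers, per the labels' protocols. Per the submitters' processing notes, the tools were StringTie 1.3.1, HISAT2, DESeq2, fastp 0.18.0 and CASAVA 1.8, the build was Rnor_6.0, and no settings are stated. Each file holds whole-number counts per gene, deposited by the authors without normalization, and FPKM that the authors deposited beside them. No strand-marking step is described, so overlapping antisense reads cannot be told apart. RefSeq (GRCr8) annotates 7 copies or pseudogenes of Krt18, 2 of Sfn and 1 of Krt8, and how their reads were counted is not stated, so these 3 levels are uncertain to that extent.

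Counts were analysed with edgeR 4.0.16 in R 4.3.3: filterByExpr (a count of at least 10, equal to 0.242 CPM in a library of median size, in 2 or more libraries, and 15 counts in all), TMM scaling, and the robust quasi-likelihood F test with group as the only term and Benjamini-Hochberg adjustment over all 15709 genes; adjusted p under 0.05 was a call. The standard error is the unshrunk log2 change divided by the square root of F. CPM use TMM-scaled library sizes. FPKM were used only to describe levels and ratios. Group values are 2 libraries each, 1 rat per library.

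The members and gene lists were chosen with earlier results of these data known, so counts over them support nothing by themselves. Of 168 list entries, 11 were not found by symbol; 1 further marker on the lists is not reported here. The text names all 9 members; from each pathway list the 3 genes with the smallest p and the most abundant called gene; from marker lists the 2 smallest p and the most abundant gene; and the 3 nearest profiles of Krt8, Krt5 and Sfn. Other genes, such as Krt16, Tp63, Dsg3, Anxa3, Itgb4 and Evpl, were named after their values were seen, and a few named by the rule appear only in counts. On simulated counts for 15709 genes the test recovered 80% of 50 genes raised 2-fold and 96% raised 4-fold. Of its 206 calls, 33 were unchanged genes, so an adjusted p close to the threshold is optimistic. The raised genes were drawn only where log2 of the mean CPM was 1 or more. These rates therefore do not cover scarcer genes such as Serpinb5 and Trim29. Fewer genes were changed in the simulation than the 2624 called in the data, so its share of unchanged calls belongs to that setting. Counts within each pair differed by 100.3 (bleomycin) and 23.4 (control) times the sampling variance, so no library was a copy. Alternatives were another scaling, no filter, DESeq2 1.42.0, a replicate term, FPKM with a pseudocount of 0.01 or 0.1, and each library left out.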

Additional observations from a re-analysis of the deposited data

How the results depend on the processing

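Krt17 and Sfn were called under each scaling, without the filter, with DESeq2, with the replicate term and without either bleomycin library, and were not called without either control; Krt18 behaved alike except without bleomycin replicate 1. Leaving out 1 library at a time gave 13 to 2569 genes higher and 8 to 2573 lower over all genes, 0 to 6 members called higher, a basal median of 2.28 to 4.22 and a basal lead over the simple median of 2.10 to 3.56 (log2). DESeq2 called 1887 genes lower. Krt15 ranged from -1.31 to 1.47 with 1 library left out, negative only without bleomycin replicate 1. Krt7 ranged from -0.17 (without bleomycin replicate 1) to 0.19, and was -0.06 without control replicate 1. Krt19 ranged from -0.16 to 0.12 (without bleomycin replicate 2), and was 0.0034 with upper quartile scaling. The cause of these shifts was not tested. The replicate numbers share no stated litter, batch or day. Deviations of same-numbered libraries correlated at -0.0024 across genes. With 2 libraries a group this cannot exclude a pairing that touches few genes, so whether the numbers pair the rats is not known. With the replicate numbers as a block, 1225 genes were higher and 1026 lower. In that fit the basal median was 3.48 and Krt5 was called (edgeR adjusted p = 0.00883). With FPKM the basal median was 3.66 (pseudocount 0.01) or 3.31 (pseudocount 0.1). Depth limits Krt5 and Krt17 in control lungs, at 0 to 27 counts a library.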
